A study of Mus musculus with 12 samples.

Results

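The Z-disc is the plate of crosslinked actin at each end of a sarcomere, the contractile unit of muscle, where thin filaments and the giant spring protein titin are anchored. Proteins in and beside it hold the filaments together, and several also move to the nucleus or act on transcription when muscle is stretched or loaded. Their transcripts are widely used as markers of mechanical stress in heart muscle. Described here are 10 such genes, chosen by name from a table of 26781 genes and matched to it by Ensembl identifier: Ankrd1, Ankrd2, Ankrd23, Tcap, Csrp3, Myot, Abra, Xirp1, Xirp2 and Fhl1. All 10 were found and all 10 passed the filter on low values.

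Gene expression was measured in hearts of mice of the inbred strain C57BL/6J, in 12 libraries that the labels put in 4 groups of 3: MI+CIH, MI, CIH and sham. MI is taken to stand for myocardial infarction and CIH for chronic intermittent hypoxia, a model of the oxygen drops of sleep apnoea, since the series title speaks of remodelling after MI and of sleep breathing disorders. MI+CIH hearts had both, MI hearts had infarction without hypoxia, CIH hearts had hypoxia without infarction, and the labels say no more of the sham hearts than their name. The labels give no sex, age, time after infarction, length of hypoxia, time of day or region of the heart, and they do not say whether each library came from its own animal, so that p-values measure the spread between libraries. Values are FPKM, which divide a gene's reads by its exon length and by the library total, so levels of different genes can be compared per length. A change is a difference of mean log2(FPKM + 0.5), tested with limma over all 15503 genes that reached 0.5 FPKM in at least 3 libraries. A member is said to have risen or fallen only where the Benjamini-Hochberg adjusted p was under 0.05.

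Library totals, recovered from the steps between low values, were 26.1 to 33.4 M reads. Summed FPKM of 12 heart muscle markers was 13016, 16217 and 9413 in MI+CIH libraries 1 to 3, between 17315 and 17433 in the MI libraries, between 19853 and 24497 in CIH and between 18101 and 20339 in sham. Heart muscle transcripts were thus abundant in every library and lowest in MI+CIH 3. Summed FPKM of 13 skeletal muscle markers was 30.5, 96.2 and 96 in MI+CIH and 12.9, 232 and 17.1 in MI, against 11.2 to 15.1 in CIH and 10.6 to 15.5 in sham. Of these 13, between 1 and 3 were at 0 in each CIH and sham library and none in the MI+CIH and MI libraries. The fast myosin gene Myh4, which defines skeletal muscle, stood at 30.2 FPKM in MI 2, at 11.4 and 2.91 in MI+CIH 3 and MI+CIH 2, and at 0.194 or lower in the other 9 libraries. Several members are also expressed in skeletal muscle, and the part of such tissue in their values was not tested. Without MI 2, MI+CIH 2 and MI+CIH 3, Abra still rose in MI against sham. Only MI+CIH 1 was then left of its group, assumed to vary like the others. It was the highest of all libraries in Ankrd1, so that refit cannot show whether the Ankrd1 rise depended on the libraries left out. The calls of Tcap, Fhl1 and Myot described below, and those of Abra in MI+CIH, were then lost with changes about as large: Tcap in MI against sham was -2.05, Fhl1 there 0.71, Myot in MI+CIH against MI -0.96, and Abra 0.99 in MI+CIH against CIH and 1.22 against sham. Fewer libraries were then fitted, and why these calls were lost was not tested. In bulk hearts fewer cells of a type and less RNA per cell cannot be told apart.

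Infarction was accompanied by more Abra and Fhl1 and less Tcap. In MI against sham 3 of 10 members passed (1.96% of all tested genes), of which 2 rose (1.37%) and 1 fell (0.593%). The libraries of 6 members lay wholly higher in MI (19.8% of all tested genes) and those of 1 wholly lower (11.7%). With hypoxia alone none of the 10 passed in CIH against sham by limma, and over all genes 0.00645% passed. None of the 10 had an unadjusted p under 0.05, as 11.8% of all tested genes did. None had libraries wholly higher (5.67% of all tested genes) or wholly lower (11.8%). In infarcted hearts with hypoxia, MI+CIH against MI, 1 member passed (0.329%), and it fell (0.0903%); none rose (0.239%). Set against hypoxia alone, MI+CIH against CIH, 4 passed (28.2%), all of which rose (19.9%), and none fell (8.26%). The 4 are a share not far from that background, and the libraries of 3 members lay wholly higher (27.3%) and of 1 wholly lower (10.3%). Set against sham, MI+CIH had 3 members that passed (16.8%), all of which rose (11.3%), and none that fell (5.51%); 3 lay wholly higher (23.8%) and 1 wholly lower (12.0%).

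The median change of the 10 members was 0.47 on the log2 scale in MI against sham, where that of all tested genes was 0.06. It was -0.26 in MI+CIH against MI (0.06 over all genes), 0.56 in MI+CIH against CIH (0.20) and 0.18 in MI+CIH against sham (0.12). The medians conceal members that went opposite ways, with Ankrd1 and Tcap higher and Abra, Xirp1, Csrp3 and Myot lower in every MI+CIH library than in any MI library. Such separation was seen for 14.6% of all tested genes upward and 9.19% downward. Relative to heart muscle markers the changes in MI+CIH against CIH were larger, at 1.93 for Ankrd1, 1.73 for Ankrd2, 1.69 for Abra and 1.58 for Fhl1 in place of the 1.17, 0.98, 0.94 and 0.82 described below, and the median of all genes was 0.95 in place of 0.20. The comparisons share libraries, and no value in one is independent evidence for another.

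**Figure D1:**
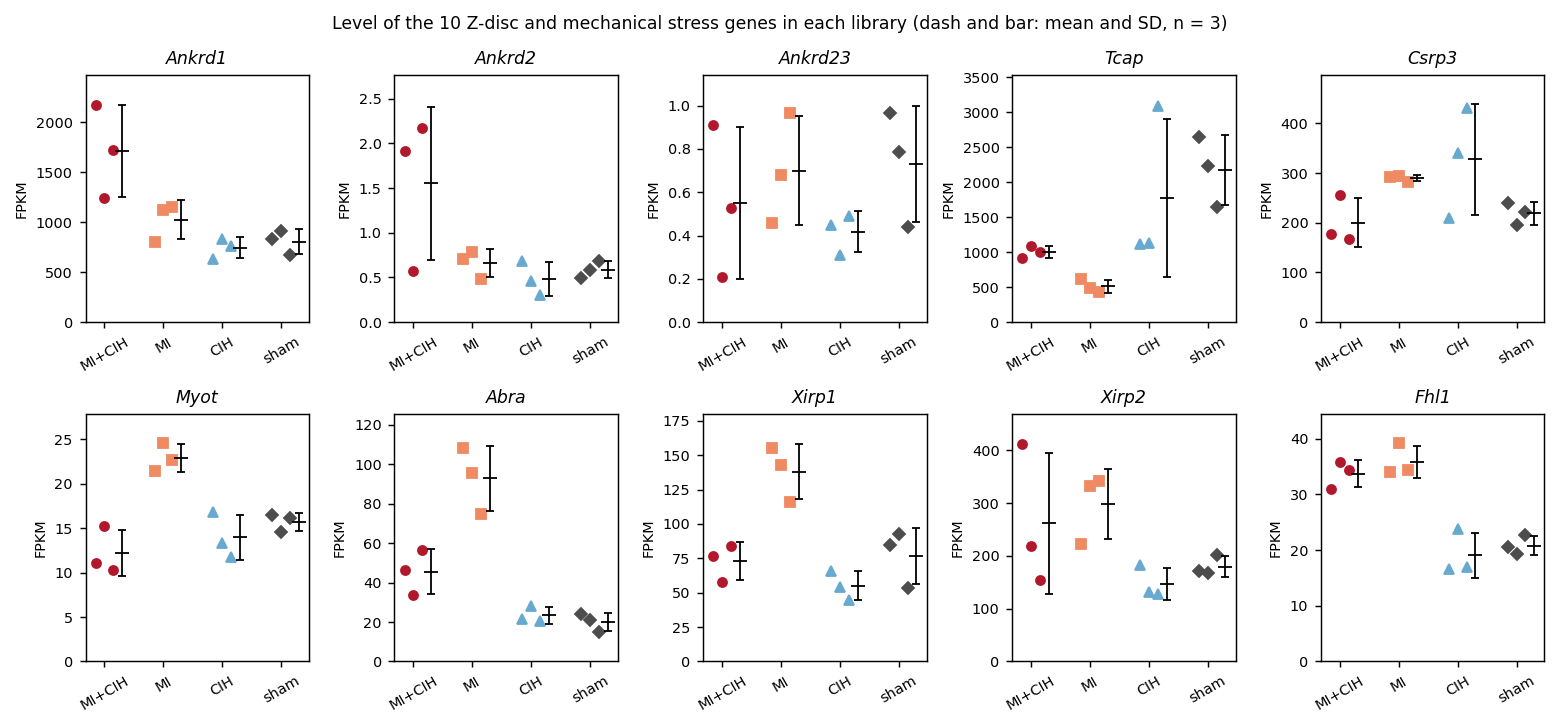
FPKM of each member in each library, with a panel per gene, groups along the horizontal axis, a point per library, and beside them a dash at the mean with a bar of 1 SD either way (n = 3). Ankrd1 lies between 1244 and 2170.2 FPKM in MI+CIH and at 1153 or lower elsewhere, while Abra is highest in MI at 75 to 108 FPKM.

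The muscle ankyrin repeat proteins encoded by Ankrd1, Ankrd2 and Ankrd23 bind the elastic region of titin and can enter the nucleus. Ankrd1 (ENSMUSG00000024803, chromosome 19, 36111961 to 36120099, minus strand, GRCm38) encodes CARP, the member of the family found most in heart. Ankrd1 had 2170.2, 1244 and 1724 FPKM in MI+CIH libraries 1, 2 and 3, 799, 1118 and 1153 FPKM in MI, 633, 837 and 764 FPKM in CIH and 837, 911 and 668 FPKM in sham. All MI+CIH libraries lay above all the others, and the other 3 groups overlapped. Ankrd1 rose in MI+CIH against CIH by 1.17 on the log2 scale (SE 0.25, limma adjusted p = 0.00676) and against sham by 1.06 (adjusted p = 0.0167), with means of 1713 ± 463 FPKM in MI+CIH, 745 ± 103 in CIH and 806 ± 125 in sham (SD, n = 3 each). Its mean in MI was 1024 ± 195 FPKM, a change of 0.34 against sham that did not pass (95% interval -0.21 to 0.88, adjusted p = 0.539). MI+CIH against MI was 0.72 and did not pass (adjusted p = 0.153), and it passed without MI+CIH 2 (0.94, adjusted p = 0.043; range over the 22 other settings 0.0185 to 0.362). Of 6 atrial markers 0 passed in MI+CIH against sham, with a median change of 0.01. Against CIH all 6 were above 0, with a median change of 1.91, and 2 rose (19.9% of all tested genes). These were Dkk3 (2.05) and Nppa (2.84), which is also expressed in stressed ventricle. The part of atrial tissue in the Ankrd1 values was not tested. The rise against sham did not pass without sham 1 (adjusted p = 0.053) or sham 3 (0.0592), in a range of 0.00232 to 0.081.

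Before the RefSeq transcription start of Ankrd1 (GRCm38.p6), which lies inside the GENCODE span given above, the sequence holds the letters CATTCC in 2 places, both on the opposite strand and so read as GGAATG in the direction of the gene. CATTCC is the core recognised by TEAD factors, the DNA-binding partners of the mechanosensitive coactivator YAP, and is shown because targets of these factors are described below. The sites, 5′ to 3′ with the motif in capitals, lie at chr19:36120037-36120066 and chr19:36119950-36119979 on the minus strand, with the motif beginning 210 and 123 bases before that start. Both are therefore upstream of the RefSeq start and within the GENCODE gene. Annotated exon sequence of Ankrd1 begins upstream of both motifs.
Ankrd1 site 1: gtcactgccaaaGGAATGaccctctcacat
Ankrd1 site 2: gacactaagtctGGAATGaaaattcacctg
Ankrd23 site: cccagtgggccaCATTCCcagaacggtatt
The Ankrd23 site lies at chr1:36535842-36535871 on the minus strand, inside the gene span, with the motif beginning 120 bases before the inner of 2 RefSeq starts. The window of the outer start held no match. On either strand 12.6% of 32851 promoter windows of 250 bases held this motif, so a match is common. The windows of 6 members were searched for 5 motifs, and those of Ankrd2 and Csrp3 held none of them.

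Ankrd2 and Ankrd23 were near the lower end of detection in the same hearts. Ankrd2 (ENSMUSG00000025172, chromosome 19, 42036000 to 42045110, plus strand), which in muscle is known chiefly from slow skeletal fibres, had 1.92, 0.577 and 2.17 FPKM in MI+CIH, 0.709, 0.782 and 0.485 FPKM in MI, 0.679, 0.462 and 0.302 FPKM in CIH and 0.493, 0.58 and 0.689 FPKM in sham. MI+CIH 1 and 3 stood above the other 10 libraries, and MI+CIH 2 lay among them. These values correspond to about 11.4 to 69.3 reads. Ankrd2 rose in MI+CIH against CIH by 0.98 (SE 0.31, limma adjusted p = 0.0367), and the libraries overlapped. The call was lost without any 1 of MI+CIH 1 (0.116), MI+CIH 3 (0.137), MI 2 (0.0501), CIH 2 (0.0757), CIH 3 (0.116) or sham 2 (0.0504), with a range over the settings of 0.00163 to 0.171. MI 2, highest in the skeletal muscle markers, had 0.782 FPKM, the highest of MI. MI+CIH 1, the lowest of its group in those markers, had 1.92. MI+CIH 3, with a summed 96 FPKM of the markers, had 2.17, the highest of all libraries. The part of skeletal muscle tissue in the Ankrd2 values was not tested.
Ankrd23 (ENSMUSG00000067653, chromosome 1, 36530188 to 36536883, minus strand), whose protein is DARP, ranged over all libraries from 0.209 to 0.967 FPKM, about 16 to 78 reads. It passed in none of the 6 comparisons, its groups overlapped in all 5 comparisons of 2 groups, and its log2 change in MI against sham was -0.03.

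Tcap, Csrp3 and Myot encode proteins built into or attached to the Z-disc. Tcap (ENSMUSG00000007877, chromosome 11, 98383811 to 98384953, plus strand) encodes telethonin, which caps the end of titin in the Z-disc. Tcap had 920.2, 1089 and 997 FPKM in MI+CIH, 618, 490.4 and 429.5 FPKM in MI, 1113, 1126 and 3084 FPKM in CIH and 2648, 2231 and 1643 FPKM in sham. MI was lowest in all 3 libraries, MI+CIH was next with no overlap, and CIH libraries lay both below and above the range of sham. Tcap fell in MI against sham by 2.07 (SE 0.36, limma adjusted p = 0.0205), with mean levels of 513 ± 96.1 FPKM in MI and 2174 ± 505 in sham (SD, n = 3 each). MI+CIH averaged 1002 ± 84.7 FPKM, 0.461 times the sham mean; that difference of -1.09 did not pass (95% interval -1.88 to -0.31, adjusted p = 0.0582). Nor did MI+CIH against MI, at 0.98 (adjusted p = 0.175), or the interaction of MI and CIH, the MI+CIH minus MI difference less that of CIH minus sham, at 1.42 (adjusted p = 0.148).
The MI call for Tcap did not pass without MI 2 (adjusted p = 0.0917), MI 3 (0.0998), sham 1 (0.107) or sham 2 (0.0832), while the change kept within -2.26 to -1.92. In those same refits 22 to 30 genes of the whole table passed, against 304 with all 12 libraries. MI+CIH against sham passed without CIH 1 (0.046) or CIH 3 (0.0135), in a range of 0.0135 to 0.258.

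Clock genes also differed between MI and sham, the comparison in which Tcap fell. Dbp, an output gene of the circadian clock, had 12.5, 17.8 and 12.7 FPKM in MI+CIH, 4.32, 4.55 and 6.37 FPKM in MI, 27.5, 7.77 and 73.3 FPKM in CIH and 60.5, 62.5 and 90.7 FPKM in sham. CIH 3, the library highest in Tcap, was the highest CIH library in Dbp, and MI was lowest in both. CIH 1 and CIH 2 lay apart in Dbp but close together in Tcap. Of 16 clock genes 3 rose and 6 fell in MI against sham (1.37% and 0.593% of all tested genes). Among them were the activator gene Arntl (3.22, limma adjusted p = 0.0047) and the output gene Hlf (-1.76, adjusted p = 0.0047). In MI+CIH against sham 4 clock genes rose and 8 fell (11.3% and 5.51% of all tested genes). Collection times are not given in the labels, and the part of time of day in the Tcap values was not tested.

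**Figure D2:**
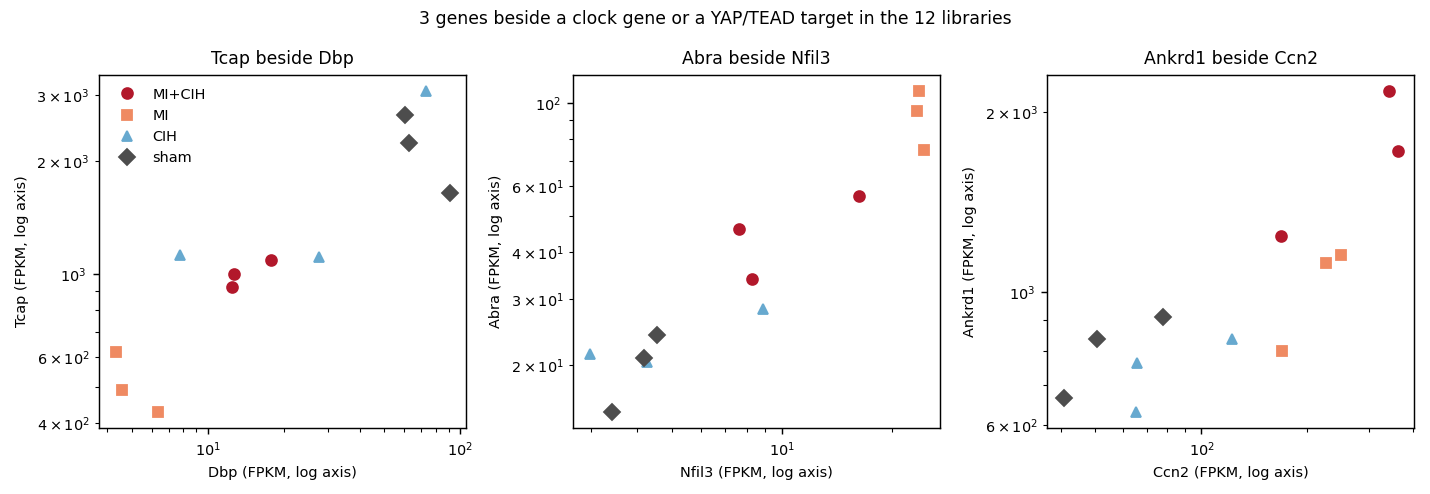
Tcap against Dbp, Abra against Nfil3 and Ankrd1 against Ccn2, a panel each, in the 12 libraries (both axes FPKM on a log scale, the first gene vertical), a point per library coloured by group. MI, the lowest group in Dbp at 4.32 to 6.37 FPKM, is also the lowest in Tcap, and the MI points are the highest in Abra and Nfil3.

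Csrp3 (ENSMUSG00000030470, chromosome 7, 48830398 to 48848033, minus strand) encodes muscle LIM protein, which binds telethonin and alpha-actinin. Csrp3 had 177, 256 and 168 FPKM in MI+CIH, 293, 295 and 282 FPKM in MI, 209.7, 341 and 431 FPKM in CIH and 240.1, 195 and 221 FPKM in sham. MI libraries lay above both MI+CIH and sham, and the CIH libraries spread widest. It passed in no comparison. The nearest was MI+CIH against CIH at -0.67 (95% interval -1.22 to -0.12, limma adjusted p = 0.0668), which passed without MI+CIH 2 (-0.86, adjusted p = 0.0284) or CIH 1 (-0.96, 0.0105), in a range of 0.0105 to 0.755 in which the change turned to 0.08 relative to heart muscle markers.
Myot (ENSMUSG00000024471, chromosome 18, 44334074 to 44355724, plus strand) encodes myotilin, which crosslinks actin filaments and binds alpha-actinin and filamin C. Myot had 11.1, 15.2 and 10.3 FPKM in MI+CIH, 21.4, 24.6 and 22.7 FPKM in MI, 16.8, 13.3 and 11.8 FPKM in CIH and 16.5, 14.6 and 16.1 FPKM in sham. MI was highest in all 3 libraries and MI+CIH overlapped with CIH and sham. Myot was the member that fell in MI+CIH against MI (-0.90, SE 0.16, limma adjusted p = 0.0495), 0.533 times the MI mean. The call was marginal: it was lost without any 1 of 10 of the 12 libraries, all but MI+CIH 2 and CIH 1. In those 10 refits the limma adjusted p was 0.0664 to 0.21 and the change stayed between -0.95 and -0.79. From 0 to 74 genes of the whole table passed in them, against 51 with all 12 libraries. Relative to the heart muscle markers, which were lowest in MI+CIH, the change was -0.47 and did not pass (adjusted p = 0.0611, in a range over all settings of 0.00936 to 0.213). Its difference in MI against sham, 0.53, did not pass (adjusted p = 0.135).

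Abra, Xirp1, Xirp2 and Fhl1 encode proteins that bind actin or carry strain signals. Abra (ENSMUSG00000042895, chromosome 15, 41864076 to 41869720, minus strand) encodes STARS, which stimulates actin assembly and so lets MRTF coactivators reach the transcription factor SRF in the nucleus. Abra had 46.2, 33.8 and 56.6 FPKM in MI+CIH, 108, 95.3 and 75 FPKM in MI, 21.4, 28.2 and 20.3 FPKM in CIH and 24, 20.8 and 15 FPKM in sham. MI was highest, MI+CIH lay between MI and the groups without infarction, and CIH and sham overlapped. Abra rose in MI against sham by 2.20 (SE 0.23, limma adjusted p = 0.00234), 4.65 times the sham mean and the fourth smallest p of all tested genes. It also rose in MI+CIH against CIH by 0.94 (adjusted p = 0.0133) and against sham by 1.17 (0.0092). The lower level in MI+CIH than in MI, -1.03, did not pass (95% interval -1.54 to -0.52, adjusted p = 0.0656), nor did the interaction at -1.26 (0.0821).
In MI against sham Abra passed in each of 22 other settings, with changes of 2.01 to 2.34. The call against CIH was lost without MI+CIH 3 (adjusted p = 0.0525, in a range of 0.000339 to 0.0765). The clock repressor gene Nfil3, the gene most like Abra over the 12 libraries, had 7.61, 8.27 and 16.2 FPKM in MI+CIH, 23.7, 23.4 and 24.4 FPKM in MI, 2.98, 8.86 and 4.27 FPKM in CIH and 4.56, 4.18 and 3.42 FPKM in sham. MI was highest in both genes, and the part of time of day in the Abra values was not tested.

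Fhl1 (ENSMUSG00000023092, chromosome X, 56731787 to 56793346, plus strand) encodes a LIM-domain protein that binds titin in a complex involved in stretch signalling. Fhl1 had 31, 35.8 and 34.4 FPKM in MI+CIH, 34, 39.2 and 34.3 FPKM in MI, 16.6, 23.7 and 16.9 FPKM in CIH and 20.5, 19.2 and 22.7 FPKM in sham. The groups with infarction overlapped with each other and lay above every library without it. Fhl1 rose in MI against sham by 0.77 (SE 0.15, limma adjusted p = 0.0289), in MI+CIH against CIH by 0.82 (0.00374) and in MI+CIH against sham by 0.68 (0.0129). MI+CIH against MI was -0.09 (95% interval -0.42 to 0.24, adjusted p = 0.806).
The MI call for Fhl1 was lost without MI 1 (adjusted p = 0.0686), MI 2 (0.132), MI 3 (0.103), sham 1 (0.123) or sham 2 (0.126), with changes of 0.71 to 0.84 throughout. With all libraries kept, it was also lost with no filter (0.77, limma adjusted p = 0.0531) and relative to heart muscle markers (0.79, 0.0705). Against sham the MI+CIH call was lost without sham 1 (0.0507) or sham 2 (0.0508). Before a RefSeq start inside the span of Fhl1 there is a CArG box, the element bound by SRF. It lies within the site at chrX:56779571-56779600 on the plus strand, with the motif in capitals beginning 102 bases before that start.
Fhl1 CArG site: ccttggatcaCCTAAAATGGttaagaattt
A CArG box was found in 1.47% of the 32851 windows. The window of the other RefSeq start of Fhl1 held no match. Annotated exon sequence of Fhl1 begins upstream of the box, within the same window.

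Xirp1 and Xirp2 encode the Xin proteins, which bind actin at the intercalated discs joining heart muscle cells. Xirp1 (ENSMUSG00000079243, chromosome 9, 120013755 to 120023598, minus strand) had 77, 57.5 and 83.9 FPKM in MI+CIH, 155, 143 and 116 FPKM in MI, 66.1, 54.1 and 44.9 FPKM in CIH and 84.3, 92.5 and 53.3 FPKM in sham. MI was highest in all 3 libraries, and the other groups overlapped. Neither MI against sham (0.87, 95% interval 0.35 to 1.39, limma adjusted p = 0.0903) nor MI+CIH against MI (-0.93, interval -1.45 to -0.41, 0.0815) passed.
Xirp2 (ENSMUSG00000027022, chromosome 2, 67446002 to 67526614, plus strand) had 412, 219 and 154 FPKM in MI+CIH, 223, 332 and 343 FPKM in MI, 182, 132 and 127 FPKM in CIH and 171, 167 and 202 FPKM in sham. MI+CIH 1 was the highest of the 12 libraries, and MI+CIH 3 lay within the range of CIH and below every sham library. No comparison passed; MI+CIH against CIH was 0.73 (adjusted p = 0.108) and passed without MI+CIH 3 (1.05, adjusted p = 0.0347), in a range of 0.000805 to 0.347.
Xirp2 is a known target of MEF2 factors in muscle, and its promoter is shown for that reason. The RefSeq sequence has a MEF2 box within the site at chr2:67445918-67445947 and the AP-1 letters TGANTCA within the site at chr2:67445884-67445912, both on the plus strand. The motifs, in capitals, begin 74 and 107 bases before the start. Each motif reads as a match on both strands at the same place.
Xirp2 MEF2 site: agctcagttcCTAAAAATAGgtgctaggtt
Xirp2 AP-1 site: aaaggagtggtTGACTCAagccccaccta
The MEF2 box was present in 2.92% and the AP-1 motif in 6.75% of the 32851 windows. The E-box CACGTG, bound by clock factors, was found in 6.02% of windows and in none of those of the members.

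**Figure D3:**
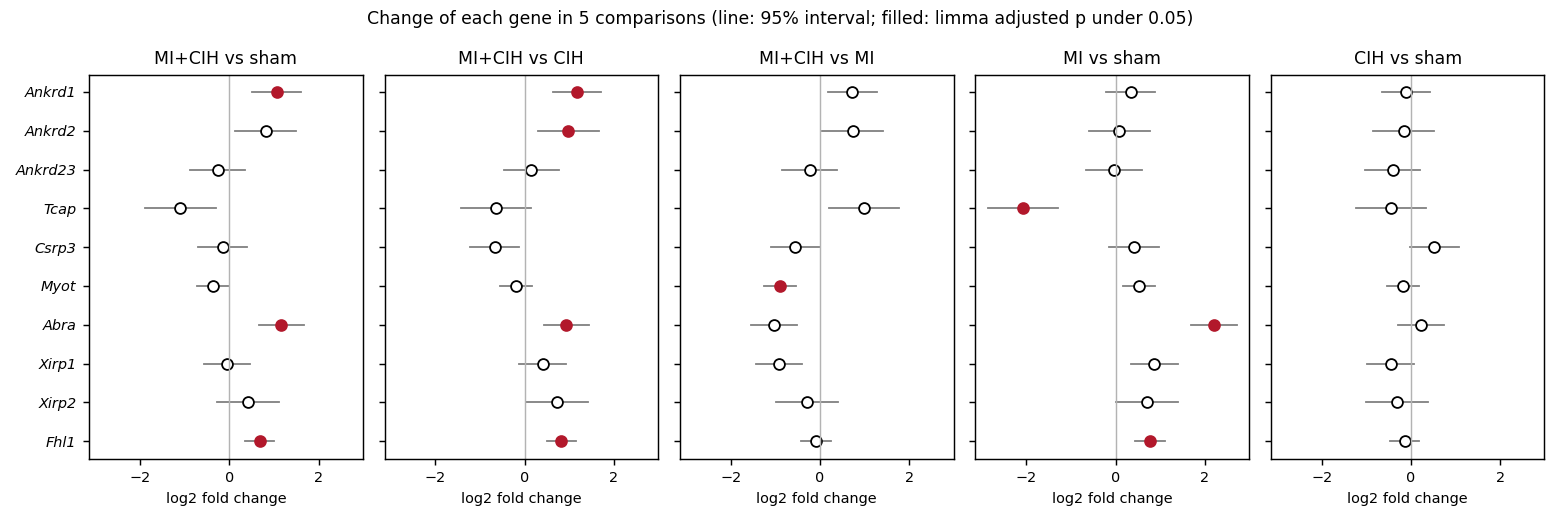
Log2 change of each member in 5 comparisons of 2 groups, a panel each, with 95% confidence intervals; the horizontal axis is the log2 difference of FPKM + 0.5 and filled points passed limma at an adjusted p under 0.05. Abra in MI against sham stands farthest to the right at 2.20 and Tcap farthest to the left at -2.07.

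None of the 10 members passed for the interaction of MI and CIH, where 0.0774% of all tested genes did (0.0710% upward and 0.00645% downward), and 5 had an unadjusted p under 0.05, as did 21.2% of all tested genes. These were Tcap (1.42), Csrp3 (-1.08), Abra (-1.26), Myot (-0.72) and Ankrd1 (0.84, adjusted p = 0.206). Relative to heart muscle markers 4 passed, Ankrd1, Ankrd2, Fhl1 and Tcap, all upward, and that scaling moved the median of all genes from 0.13 to 0.87. Without MI+CIH 2, Ankrd2 (1.31, adjusted p = 0.0335) and Myot (-0.88, 0.0365) passed.

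The members did not form a single pattern over the 12 libraries. Pearson correlations of log2 levels were 0.841 for Abra and Fhl1, 0.821 for Abra and Xirp1 and 0.763 for Ankrd1 and Ankrd2, and -0.847 for Tcap and Abra. The libraries share groups and depth, and these values are descriptions. Genes most like Tcap over the 12 libraries were Trim54 (r = 0.925), Rufy1 (0.919) and Trip10 (0.913). Those most like Abra were Nfil3 (0.957), Tiam2 (0.948) and Sema3f (0.946). Ankrd1 was followed most closely by Fstl3 (0.96), Col11a1 (0.953) and Ppfibp1 (0.946), and Ankrd2 by Ythdc1 (0.959), Tet3 (0.938) and Itgam (0.931). For Fhl1 they were Thbs3 (0.966), Nid1 (0.961) and Rab7b (0.957), and for Myot Ppargc1a (0.933), Homer1 (0.921) and Exoc3 (0.906).

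Genes of the same structures and pathways were counted beside the members. Of all tested genes 1.37% rose and 0.593% fell in MI against sham, and 0.239% and 0.0903% in MI+CIH against MI. The shares were 19.9% and 8.26% in MI+CIH against CIH, and 11.3% and 5.51% in MI+CIH against sham. Of 31 tested genes of other Z-disc proteins 1 rose and 0 fell in MI against sham, Pdlim7 (0.64, limma adjusted p = 0.0379), an adaptor with PDZ and LIM domains. Against CIH, 4 rose and 3 fell in MI+CIH; its relatives Pdlim3 (1.14) and Pdlim1 (0.64) were among those that rose, and the chaperone gene Cryab (-0.68) and Cavin4 (-0.56) were among those that fell. Against sham, 3 rose and 2 fell in MI+CIH, and those that fell were Cryab (-0.77) and Ldb3 (-0.80), which encodes the Z-disc protein ZASP. None of the 31 passed in MI+CIH against MI, where the smallest p belonged to Smpx (-0.73, adjusted p = 0.104) and the actin crosslinker gene Flnc (-0.60, 0.109).
Among 18 partners and targets of SRF and MRTF 0 passed in MI against sham, where Abra itself rose, and 0 in MI+CIH against MI. Of the same 18, 9 rose and 1 fell in MI+CIH against CIH: Actg2 (1.95), Tagln (1.29) and the coactivator gene Mrtfa (0.91) rose and Srf itself fell (-0.45, adjusted p = 0.0313). Against sham, 5 rose and 0 fell in MI+CIH, Actg2 (1.64) first among them. Tagln is also a smooth muscle marker, and the summed FPKM of 4 such markers was 271 to 398 in MI+CIH, 154 to 219 in the MI libraries, 82.1 to 232 in CIH and 141 to 179 in sham; their part in these counts was not tested.

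Of 13 partners and targets of YAP and TEAD 1 rose in MI against sham, Ccn2 (1.95, limma adjusted p = 0.0224), a secreted matrix regulator and standard YAP target. Ccn2 (1.76), Tead4 (0.78) and the receptor gene Axl (0.68) were among the 4 that rose in MI+CIH against CIH, and 4 rose against sham, among them Ccn2 (2.33) and Nuak2 (0.81). None fell in either comparison, and none passed in MI+CIH against MI. Of all tested genes 19.9% rose and 8.26% fell in MI+CIH against CIH, and 11.3% and 5.51% in MI+CIH against sham. Ccn2 had 341, 168 and 361 FPKM in MI+CIH, 169, 226 and 249 FPKM in MI, 65.1, 122 and 65.5 FPKM in CIH and 50.5, 77.9 and 40.7 FPKM in sham. Both Ccn2 and Ankrd1 had MI+CIH 2 as the lowest of their group. The 6 fibroblast markers, whose cells also express Ccn2, summed to 739 to 1575 FPKM in MI+CIH, 477 to 797 in the MI libraries, 164 to 299 in CIH and 189 to 233 in sham, and their part in the Ccn2 values was not tested.
Of 18 partners of the Xin proteins and Csrp3 at the junctions and costameres, 0 passed in MI against sham or in MI+CIH against MI. Against CIH, 1 rose and 4 fell in MI+CIH, with the talin gene Tln1 (0.47) higher and the muscle integrin gene Itga7 (-0.70) and Ctnna3 (-0.67) lower. Against sham, 2 rose, the integrin subunit gene Itgb1 (0.68) and Parva (0.52), and 4 fell, among them the desmosome genes Dsp (-0.70) and Jup (-0.58) and Itga7 (-0.74).

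**Figure D4:**
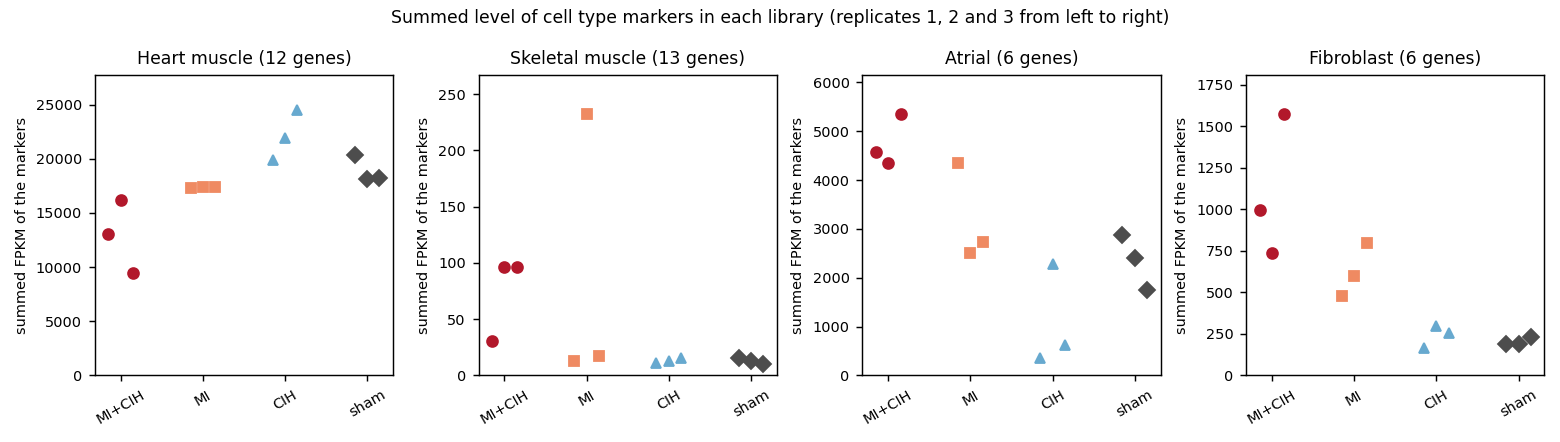
Summed FPKM of the markers of heart muscle, skeletal muscle, atrium and fibroblasts in each library, with a panel per list, groups along the horizontal axis and a point per library. MI 2 stands at 232 FPKM in skeletal muscle markers and MI+CIH 3 at 9413 FPKM in heart muscle markers, the lowest of the 12; Nppa makes up most of the atrial sum.

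The order of the levels per length differed between groups at the top. In sham Tcap was highest at a mean of 2174 FPKM, followed by Ankrd1 at 806 FPKM, with no overlap of libraries between them. Csrp3 (218) and Xirp2 (180.0) came next and overlapped. Xirp1 averaged 76.7, Fhl1 20.8, Abra 19.9 and Myot 15.7 FPKM, with Abra overlapping both Fhl1 and Myot. Ankrd2 was lowest with Ankrd23, at 0.587 FPKM, and these overlapped. In the MI+CIH hearts Ankrd1 was highest at 1713 FPKM and Tcap second at 1002 FPKM, whose libraries of 920.2 to 1089 FPKM did not reach those of Ankrd1. In MI Ankrd1 (1024) also stood above Tcap (513), without overlap, while in CIH Tcap (1774) stood above Ankrd1 (745). The 10 members made up 0.92 to 1.19% of all FPKM in MI+CIH, 0.741 to 0.849% in the MI libraries, 0.693 to 1.33% in CIH and 0.89 to 1.25% in sham.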

How the data were processed

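RNA of 12 heart libraries, 3 per group, was analysed from 1 table of FPKM deposited by the authors, covering 26781 genes. The submitters' processing notes name the build mm10 and, without roles, DESeq 1.8.3, HISAT and featureCounts 1.5.0-p3. A small RNA kit is named in the labels, whereas the table covers long messenger RNAs. Read totals were recovered from FPKM steps with GENCODE M21 exon lengths, and 95.4 to 96.3% of values under 20 reads came out whole within 0.1 reads. They bound counting error only.

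Because the table holds FPKM and not counts, limma 3.58.1 (trend and robust, statmod 1.5.0, R 4.3.3) was fitted to log2(FPKM + 0.5) of 15503 genes with at least 0.5 FPKM in 3 libraries, with 1 mean per group and Benjamini-Hochberg adjustment over all tested genes in each of 6 comparisons. The pseudocount understates changes of low genes. Strand of counting is not given in the sources used here, so antisense partners cannot be told apart. The members and lists were chosen with earlier results of these data known. All members are named; of each list, up to 3 genes with the smallest p in each direction, or 2 where none passed, could be named; Dbp, Nfil3 and Ccn2 were chosen for values by library after they were seen. Likeness is Pearson's r over 12 libraries. Promoters are RefSeq, GRCm38.p6, and those of 6 members were in the table used. A gene of the lists that the rule would name is counted but not reported here.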

Additional observations from a re-analysis of the deposited data

How the results depend on the processing

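The number of members passing limma was 0 in CIH against sham under every alternative run. In MI against sham it was 3, and 1 without sham 2 and MI+CIH 3 together or without MI 2, MI+CIH 2 and MI+CIH 3 together, the libraries with the most skeletal muscle markers, an alternative chosen after seeing the data; leaving out each library gave 1 to 3. In MI+CIH against MI it was 1, and 0 with a pseudocount of 0.1, only the groups compared, no filter, a filter at a mean of 1 FPKM or the replicate block. It was also 0 without sham 2 and MI+CIH 3 together. It was 2 relative to heart muscle markers, and 0 to 3 leaving out each library. In MI+CIH against CIH it was 4, with 8 relative to heart muscle markers, 1 in a fit of only the groups compared and 2 without sham 2 and MI+CIH 3; leaving out each library gave 3 to 5. In MI+CIH against sham it was 3, with 5 relative to heart muscle markers and 0 without sham 2 and MI+CIH 3. Leaving out each library gave 1 to 5. Without the 3 libraries high in skeletal muscle markers only 1 MI+CIH library is left, so no counts are given for its comparisons. The interaction had 0, with 4 relative to heart muscle markers and 0 to 2 leaving out each library. Myot in MI+CIH against CIH reversed from -0.19 to 0.56 (adjusted p = 0.0094) relative to heart muscle markers, a scaling that moved the median of all genes there from 0.20 to 0.95; Tcap, not called, moved from -0.65 to 0.10. Removing several libraries leaves fewer samples; other causes were not tested. After the mean of each group was taken out of the log2 levels, same-numbered libraries correlated at -0.175 to 0.128, with 3 of 18 pairs over 0.1. The labels give no pairing, and these values cannot decide whether a pairing exists. With the replicate block 3 members passed in MI against sham, 0 in MI+CIH against MI and 3 in MI+CIH against CIH. The count was 3 in MI+CIH against sham and 0 for the interaction. Few reads limit Ankrd2 and Ankrd23.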
